A study of Drosophila melanogaster with 6 samples.

Results

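The genes described here make, export, modify, bind or break down chitin in Drosophila melanogaster, or belong to the families of such genes. They were chosen by symbol: the chitinase (Cht), chitin deacetylase (Cda, serp, verm), obst, Idgf and Peritrophin families, the 2 chitin synthase genes, the enzymes that supply the sugar precursor, and factors that act beside the synthases. The choice found 50 probe sets of 44 genes, of 11983 genes with a probe set of their own, and 42 of the 44 passed the filter on low values. Cht8 and Cht12 did not pass it, with log2 values from 2.13 to 2.54 on the 6 arrays. The genes nst, rtv and Hexo1 had no probe set of their own and were not analysed here.

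Messenger RNA was measured in whole third-instar larvae, young and feeding on yeast, with 3 arrays in each of 2 groups. The gain larvae carried a P-element transgene, on the w1118 background, that places a full-length cDNA of the nuclear receptor DHR96 (gene Hr96) under a heat-shock promoter. The control larvae were w1118 without a transgene. Both groups were heated for 1 h at 37.5 degrees, starting 3 h after the moult from the second to the third instar, and RNA was taken 4 h later. The control thus shares the strain and the heat, but not the insertion, and the number of lines or insertions is not stated. Whether the arrays of 1 group stem from separate cultures is not stated either, so the p-values measure the spread between these samples, which may be technical. The design sets excess DHR96 against its normal level to find the transcripts that differ.

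Chitin is a polymer of N-acetylglucosamine. Cells make it at their apical surface from UDP-N-acetylglucosamine, and it forms the scaffold of the body cuticle, of the lining of the tracheae and of the peritrophic matrix, the sheath around food in the midgut. At each moult the old cuticle is digested by chitinases and hexosaminidases, while deacetylases and chitin-binding proteins order the new one.

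All values are log2 of the deposited intensities, and a difference is the gain mean minus the control mean. A gene passed when its adjusted p was under 0.05 in limma, with Benjamini-Hochberg adjustment over all 7974 genes and unnamed probe sets tested, and the words rose and fell are used only for these. A log2 value of 4 served as the floor of detection. In gain larvae Hr96 itself was 34.2-fold higher, at 14.69 against 9.60 (adjusted p = 1.86e-05). Gain 2 stood below the other gain arrays: its median deviation from the others over all tests was -0.29, and 79.7% of all tests and 36 of the 42 chitin genes had their lowest gain value there. Control 3 also stood apart. Controls 1 and 2 lay closer to each other (SD of their log2 difference over all tests 0.204) than any other pair within a group, which ranged from 0.31 to 0.482. In whole larvae, fewer cells of a type and less RNA per cell cannot be told apart, nor can a difference in stage between the groups. Marker lists named 6 fat body, 5 muscle, 4 Malpighian tubule and 4 neuron genes. Of these 3, 3, 2 and 3 had a probe set of their own. All markers with a probe set were detected for the midgut (6), haemocytes (6), fat body (3), muscle (3) and Malpighian tubules (2). Of the epidermis 2 of 5, of the salivary gland 3 of 6 and of neurons 1 of 3 were detected. None of these fat body, haemocyte, muscle, salivary gland, Malpighian tubule or neuron markers passed in limma. Both Malpighian tubule markers lay lower on every gain array, with a mean of 12.68 to 12.72 in control against 12.18 to 12.49 in gain. So did 3 of 6 midgut, 2 of 6 haemocyte and 1 of 2 epidermal markers, and no fat body, muscle, salivary gland or neuron marker. Of all tests 25.2% lay wholly below control. The mean of the salivary gland markers ranged from 9.03 to 12.69 among the controls, a span that holds the gain values of 11.20 to 11.81. The neuronal marker elav ranged from 7.97 to 8.37 in control and from 7.04 to 8.02 in gain. The proventriculus marker drd ranged from 6.72 to 7.22 in control and from 6.28 to 6.88 in gain, with no call. The part of these tissues in the values of the chitin genes was not tested.

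Chitin genes were lower in gain larvae at several steps of the pathway and higher at none. Of the 42 tested, 7 fell: Gfat1 and Nagk of precursor supply, the synthase gene Chs2, the export factor gene exp, the deacetylase gene Cda5, the chitinase gene Cht7 and the chitin-binding protein gene obst-A. None rose, and 35 did not pass. Among all tests 3.47% were called lower and 0.451% higher. Quantile normalization and centring on the tested probe sets moved the balance of all calls from 277 lower and 36 higher to 282 and 171 and to 252 and 204, and gave 7 and 6 chitin genes lower and none higher. Of the 7 reported, 6 and 5 were among these: both settings added reb and lost Chs2, and the second also lost obst-A. The chitin genes had a median log2 difference of -0.48, against -0.15 for all tests, and 39 of 42 (92.9%) had a negative difference, against 75.0% of all tests. The gain values lay wholly below the control values in 24 of the 42 and wholly above in none, where 25.2% of all tests lay wholly below and 5.49% wholly above. At an unadjusted p under 0.05, 20 chitin genes were lower and 0 higher, beside 18.5% and 2.62% of all tests. The set was chosen with earlier results of these arrays known, so these counts and medians describe it and are no test of it.

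**Figure D1:**
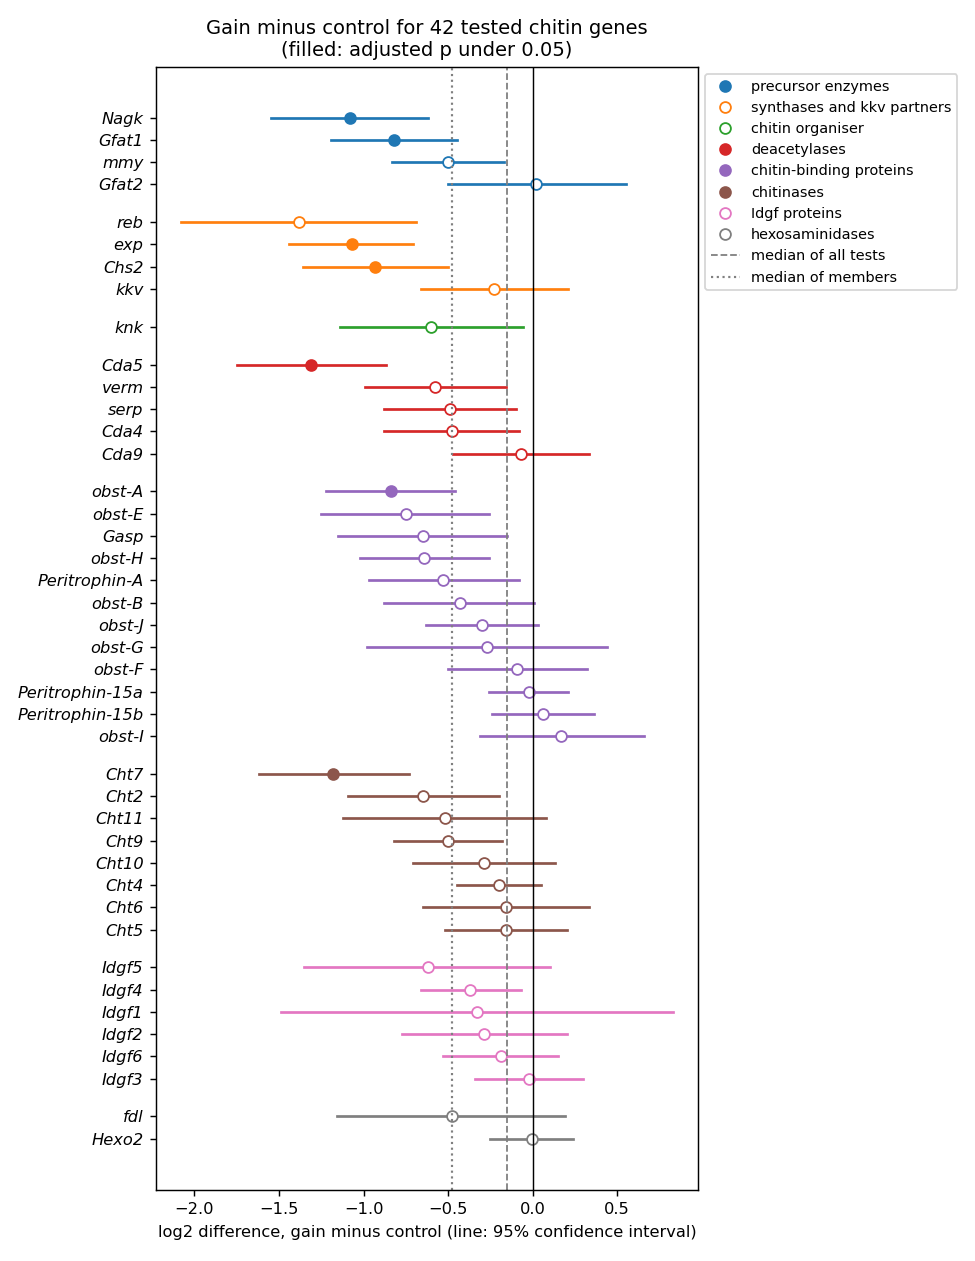
Log2 difference (gain minus control, x axis) of each of the 42 tested chitin genes, with 1 row per gene, coloured by role; lines are 95% confidence intervals from limma, and filled points passed at an adjusted p under 0.05. The 7 filled points lie between -1.31 and -0.82; the dashed line marks the median of all tests (-0.15) and the dotted line that of the chitin genes (-0.48).

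The number of calls changed when single arrays were left out. Against the reported fit, each such fit also has fewer samples, which cannot be told apart from the weight of the array left out. All 6 of them have the same number of arrays, so counts that differ among them go with the array left out. Without control 1 and without control 2 none of the 7 passed in limma (14 and 17 chitin genes were lower at an unadjusted p under 0.05, beside 11.3% and 12.1% of all tests), and 0.339% and 0.564% of all tests were called lower after adjustment. Without control 3 the chitin count was 5, among them Idgf5, beside 4.69% of all tests. Without gain 1, 2 and 3 it was 1, 3 and 4, among the last reb, beside 1.45%, 2.35% and 2.76% of all tests. With controls 1 and 2 averaged into 1 sample, and with no filter on low values, 0 passed in limma (16 and 20 at an unadjusted p under 0.05), beside 0.502% and 0.497% of all tests called lower, and 11.9% and 9.27% lower at the unadjusted p. The size of the differences moved less. Over the 6 fits that each left out 1 array, the difference ranged from -1.42 to -1.14 for Cda5, from -1.28 to -1.0 for Cht7, from -1.23 to -0.91 for Nagk and from -1.20 to -0.97 for exp. It ranged from -1.10 to -0.84 for Chs2, from -1.0 to -0.73 for obst-A and from -0.94 to -0.67 for Gfat1. Of these 6 fits Cda5 passed in 4, Cht7 and exp in 2 each, Nagk, Gfat1 and obst-A in 1 each and Chs2 in 0.

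The sugar precursor is made in a short chain of enzymes. Of the 4 genes tested there 2 fell, beside 3.47% of all tests called lower. No role group was tested as a set. Gfat1 encodes glutamine:fructose-6-phosphate aminotransferase, which begins the hexosamine pathway. Its log2 values were 13.73, 13.63 and 13.57 in control against 13.06, 12.53 and 12.88 in gain. Every gain array lay below every control array, a difference of -0.82 ± 0.16 (SE, n = 3 per group, limma adjusted p = 0.0431), or 1.76-fold lower. Nagk encodes N-acetylglucosamine kinase, which returns free N-acetylglucosamine to the pathway. Nagk read 9.49, 9.67 and 9.90 in control against 8.65, 8.26 and 8.90 in gain. The groups did not overlap, and the difference was -1.08 ± 0.19 (limma adjusted p = 0.037), or 2.12-fold lower.

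The other precursor genes gave no call. For mmy, which encodes the pyrophosphorylase that completes UDP-N-acetylglucosamine, control values were 11.82, 11.68 and 11.96 and gain values 11.41, 11.11 and 11.44. The mmy groups did not overlap, but its difference of -0.50 had a limma adjusted p of 0.107. Gfat2 encodes a second aminotransferase of the same step as Gfat1. Its values of 12.20, 11.93 and 12.69 in control against 12.19, 12.16 and 12.54 in gain overlapped throughout. The difference was 0.02, with a 95% confidence interval from -0.50 to 0.55, so the interval still allows a shift about as large as that of mmy. Whether Gfat1 and Gfat2 responded differently was not tested.

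Drosophila has 2 chitin synthase genes: kkv serves the cuticle and the tracheae, and Chs2 is the synthase of the gut type. Chs2 was low in both groups, with 5.21, 5.72 and 5.72 in control against 4.44, 4.63 and 4.79 in gain. All 3 gain values lay between the floor and the lowest control value, and the difference was -0.93 ± 0.18 (SE, n = 3 per group, limma adjusted p = 0.0436), or 1.91-fold lower. The call of Chs2 was the least steady of the 7, held in 5 of 18 other settings. For kkv the control arrays gave 12.49, 12.43 and 12.21 and the gain arrays 12.43, 11.81 and 12.21. These overlapped, and kkv did not pass, at -0.23 with an interval from -0.66 to 0.21 (limma adjusted p = 0.509). Of the 6 midgut markers 1 fell, beside 3.47% of all tests called lower. It was the trypsin gene betaTry, from 14.50, 14.58 and 14.65 to 5.40, 3.01 and 4.59. The mean of the 6 ranged from 14.17 to 14.33 in control and from 12.07 to 12.56 in gain. Most of this distance was betaTry: the other 5 had differences from -0.38 to -0.05 and a mean of 14.11 to 14.26 against 13.88 to 14.03. The part of midgut content in the value of Chs2 was not tested.

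The genes exp (expansion) and reb (rebuff) encode related proteins that are needed, together with the synthase kkv, for chitin to be deposited at the apical surface of fly epithelia. They had among the largest differences of the set. Expression of exp was 10.35, 10.20 and 9.88 in control against 9.07, 8.94 and 9.21 in gain. The groups lay apart, with a difference of -1.07 ± 0.15 (SE, n = 3 per group, limma adjusted p = 0.0181), or 2.10-fold lower. The values of reb were 11.06, 10.86 and 11.09 in control against 9.44, 9.14 and 10.29 in gain. All 3 gain arrays were below the controls, but gain 3 lay well above the other gain arrays. The mean difference of reb, -1.38 ± 0.29, was the largest of the set, and with this spread it did not pass (limma adjusted p = 0.0544). It passed in 8 of 19 other settings, among them the fit without gain 3, where the difference was -1.72. The precision of all these values is limited by the number of arrays.

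**Figure D2:**
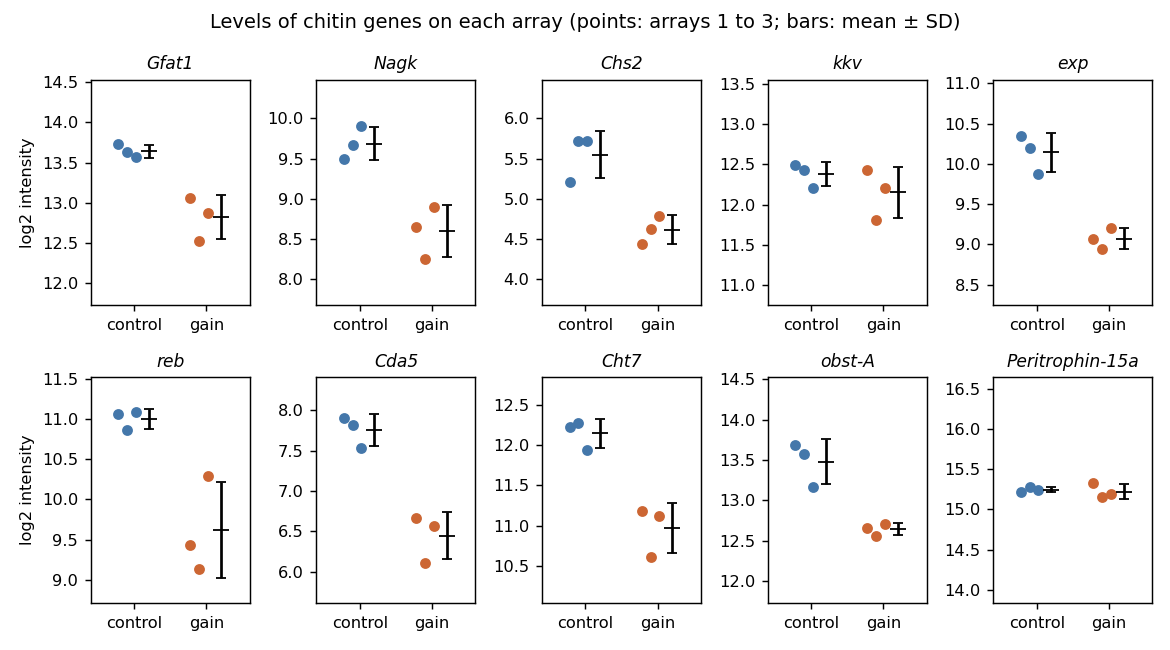
Log2 intensity (y axis, spanning the same number of log2 units in each panel) of 10 chitin genes on the 3 control (blue) and 3 gain (orange) arrays; points are arrays in the order of their replicate numbers and black bars the mean ± SD. The groups lie apart for Gfat1, Nagk, Chs2, exp, reb, Cda5, Cht7 and obst-A and overlap for kkv and Peritrophin-15a.

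Chitin deacetylases remove acetyl groups from the polymer and so alter its order. Of 5 tested, Cda5 fell and 4 did not pass, beside 3.47% of all tests called lower. Cda5 read 7.91, 7.82 and 7.53 in control against 6.67, 6.11 and 6.56 in gain. With no overlap between the groups, the difference was -1.31 ± 0.18 (SE, n = 3 per group, limma adjusted p = 0.0173), or 2.48-fold lower, and this call held in 15 of 19 other settings. The secreted deacetylases encoded by serp and verm are known for limiting the length of tracheal tubes. For serp the control values were 13.29, 13.16 and 13.35 and the gain values 12.88, 12.46 and 13.01. For verm they were 13.73, 13.65 and 13.68, against 13.32, 12.73 and 13.27. Both genes lay lower on every gain array without passing, at -0.49 and -0.58 (limma adjusted p = 0.164 and 0.13). Cda4 had a difference of -0.48, also without overlap, and Cda9 one of -0.07 with overlapping groups. None of trh, btl and stumps, which mark tracheal cells, was tested. The tracheal list also held serp, verm and Gasp, themselves chitin genes, and Gasp had a difference of -0.65. These lay lower on every gain array without a call, where 25.2% of all tests lay wholly below control. Outside the chitin set only bnl of that list was tested, with a difference of -0.15 and no call (limma adjusted p = 0.459). It lay near the floor, from 4.38 to 4.57 in control and from 4.24 to 4.41 in gain. Whether tracheal content had a part in these values was not tested.

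Knk, encoded by knk, is a membrane-associated protein that protects new chitin from chitinases. It read 8.55, 8.18 and 8.39 in control against 8.08, 7.30 and 7.95 in gain. The groups lay apart by a narrow margin, and the difference of -0.60 did not pass (limma adjusted p = 0.2).

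Chitin-binding proteins without an enzyme domain formed the largest group, with 12 genes tested. Of these obst-A fell and 11 did not pass, beside 3.47% of all tests called lower. Obst-A is a cuticle protein around which newly made chitin and its modifying enzymes are arranged. Its values were 13.69, 13.58 and 13.16 in control against 12.66, 12.56 and 12.71 in gain. The gain arrays were close together and below all controls, a difference of -0.84 ± 0.16 (SE, n = 3 per group, limma adjusted p = 0.0421), or 1.79-fold lower. This call held in 9 of 19 other settings. The gene obst-E, which is needed for the cuticle to set the body shape of the pupa, had a difference of -0.75 (limma adjusted p = 0.107). Gasp, an abundant protein of the tracheal lining, read 12.78, 12.78 and 12.39 in control against 12.36, 11.65 and 11.99 in gain. Its groups lay just apart, by less than the spread within either, and its difference was -0.65 (limma adjusted p = 0.152). The differences of obst-H, Peritrophin-A and obst-B were -0.64, -0.53 and -0.43, each with gain wholly below control. For obst-J (-0.30), the gain values also lay below the controls, by a narrow margin, while those of obst-G (-0.27), obst-F (-0.09) and obst-I (0.17) overlapped.

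Peritrophin-15a and Peritrophin-15b encode small proteins of the peritrophic matrix, and their values stayed close together across both groups. Peritrophin-15a was at 15.22, 15.28 and 15.24 in control against 15.33, 15.15 and 15.19 in gain. Its difference of -0.02 had a 95% confidence interval from -0.26 to 0.21, which leaves out a 2-fold change of intensity in either direction. Whether intensity this high still follows the amount of messenger RNA was not tested. Peritrophin-15b, at 13.78, 13.82 and 13.74 against 14.00, 13.63 and 13.88, had a difference of 0.06 and an interval from -0.24 to 0.36.

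Chitinases cut the polymer. Of 10 chitinase genes on the array 8 were tested. Of these Cht7 fell and 7 did not pass, beside 3.47% of all tests called lower. Cht7 encodes a chitinase that takes part in the ordering of the cuticle. Its values were 12.23, 12.27 and 11.94 in control against 11.18, 10.61 and 11.12 in gain. The groups were clearly apart, with a difference of -1.18 ± 0.19 (SE, n = 3 per group, limma adjusted p = 0.0252), or 2.26-fold lower. Cht2 read 9.88, 9.98 and 10.18 in control against 9.39, 9.03 and 9.68 in gain, a difference of -0.65 without overlap that did not pass (limma adjusted p = 0.121). Cht9 had a difference of -0.50 (limma adjusted p = 0.101) and Cht4 one of -0.20. Both were without overlap, for Cht4 by a narrow margin. The moulting chitinase genes Cht5 and Cht10 did not pass. Cht5 was low in both groups, at 5.61, 5.48 and 5.62 in control against 5.61, 5.51 and 5.12 in gain, and Cht10 lay at 9.26, 9.31 and 9.24 and at 9.14, 8.60 and 9.20. The groups of Cht5 overlapped, and those of Cht10 lay apart by a narrow margin. The 95% confidence interval was -0.52 to 0.20 for Cht5 and -0.71 to 0.13 for Cht10. Cht6 had a difference of -0.16. Cht11 was near the floor, with 4.16, 4.26 and 4.19 in control against 2 of 3 gain arrays below it, and had no call.

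The imaginal disc growth factors are secreted relatives of chitinases without chitinase activity, made by tissues such as the fat body. All 6 Idgf genes were tested and none passed in limma, with differences from -0.62 for Idgf5 to -0.02 for Idgf3; 1 of them, Idgf4, had an unadjusted p under 0.05. Control 3 gave the lowest control value for all 6. Idgf1 was at 10.25, 10.50 and 8.63 in control against 9.76, 9.36 and 9.27 in gain. Its gain arrays thus lay between control 3 and the other controls, and its interval, from -1.49 to 0.83, was the widest of the set. Idgf5 showed the same order, at 10.0, 10.11 and 8.96 in control against 9.15, 9.02 and 9.04 in gain, and passed without control 3, at -0.99. Idgf2 was at 13.23, 13.36 and 12.65 against 12.94, 12.72 and 12.72, and Idgf6 at 13.58, 13.62 and 13.19 against 13.36, 13.21 and 13.25. The gain values of both lay inside the span of the controls. Idgf4 was the only one of the 6 with no overlap, at 13.69, 13.67 and 13.48 in control against 13.37, 13.07 and 13.31 in gain, a difference of -0.37 (limma adjusted p = 0.169).

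Hexosaminidases release N-acetylglucosamine from the ends of sugar chains, and neither of the genes tested passed in limma (0 at an unadjusted p under 0.05). Hexo2 lay at 9.71, 9.66 and 9.89 in control and at 9.75 on all gain arrays. Its difference was -0.0043, with an interval from -0.25 to 0.24. The values of fdl, whose product trims N-linked sugar chains of proteins, were 8.52, 8.60 and 8.31 in control against 8.11, 7.37 and 8.49 in gain. The low value on gain 2 set most of the fdl difference of -0.48 (limma adjusted p = 0.372).

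**Figure D3:**
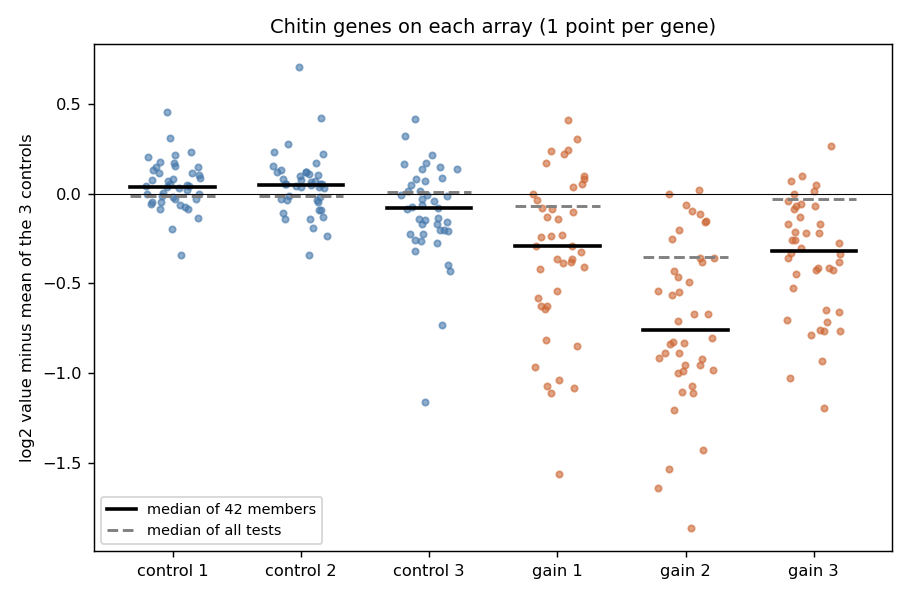
Log2 value of each of the 42 tested chitin genes minus its mean over the 3 controls (y axis), on each array (x axis); points are genes, black lines the median of the chitin genes and dashed grey lines that of all tests. The chitin median was -0.29, -0.76 and -0.32 on gain 1, 2 and 3, where that of all tests was -0.07, -0.35 and -0.03.

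The 3 gain arrays did not differ from the controls by the same amount. On gain 1 and gain 3 the median chitin gene was at -0.29 and -0.32 relative to the control mean on the log2 scale, while on gain 2 the value was -0.76. The median of all tests moved too, by -0.07, -0.03 and -0.35, so part of the distance on gain 2 was also in the median of all tests. Without gain 2 the median difference was -0.29 for chitin genes and -0.05 for all tests. Of the 35 chitin genes without a call 12 (34.3%) had a difference over 1.5 times smaller without gain 2, as had 40.0% of all tests and 0 of the 7 called genes. A call in the fit with gain 2 favours genes with a small spread among the gain arrays, so the 0 of 7 is no test of the calls. Among the 12, knk moved from -0.60 to -0.36, Cda4 from -0.48 to -0.30, Peritrophin-A from -0.53 to -0.34, obst-B from -0.43 to -0.23, fdl from -0.48 to -0.18 and kkv from -0.23 to -0.06. Scaling the arrays moved both medians together. With quantile normalization they were -0.30 and 0.04, and with centring on the tested probe sets -0.23 and 0.11. The distance between them was -0.33 as deposited and -0.34 with quantile normalization; centring shifts every gene of an array alike and leaves it as it is.

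Of the 44 genes 5 had more than 1 probe set, and these are set side by side because they can read different transcripts. The probe sets of obst-E gave like differences, -0.75 and -0.62. The second probe set of Idgf3, dimmer than the first, lay at 6.0, 6.48 and 6.04 in control against 6.86, 6.38 and 6.32 in gain, a difference of 0.34 beside -0.02 for the brighter. The second probe sets of exp and Gfat1 lay below the floor on every array, from 2.87 to 3.53 and from 2.25 to 2.34, and so give no second reading of those falls. Of the 3 probe sets of Cht6, 1 passed the filter.

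The chitin genes are spread over all major chromosome arms, with 10 on 2L, 10 on 2R, 10 on 3L, 7 on 3R and 7 on X. In the Release 6 plus ISO1 MT annotation 9 pairs of them are next to each other with no other protein-coding gene between, and both genes were tested in 7 pairs. The neighbours exp and reb had differences of -1.07 and -1.38, verm and serp -0.58 and -0.49, and obst-A and Peritrophin-A -0.84 and -0.53. The pair Peritrophin-15a and Peritrophin-15b had -0.02 and 0.06. Cht4 and Cht9 gave -0.20 and -0.50, and the row of Idgf1, Idgf2 and Idgf3 gave -0.33, -0.29 and -0.02. These values are a description of neighbours, and no test of their likeness was run.

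Genes around the pathway were read from 4 further lists. Of 10 tested genes that feed sugar into UDP-N-acetylglucosamine or use it elsewhere, none passed in limma. At an unadjusted p under 0.05 there were 4, among them Hex-C, higher, and CG17065, lower. Of all tests 18.5% were lower and 2.62% higher at that threshold. The hexokinase gene Hex-C, at 9.24, 9.64 and 9.69 in control against 10.31, 10.16 and 10.30 in gain, lay higher on every gain array without passing (0.73, limma adjusted p = 0.0512). Hex-C passed in 7 of 19 other settings, among them a floor of 6, quantile normalization and the fit without control 3, with differences from 0.59 to 0.98 over the 19. CG17065 had a difference of -0.77 and passed in 2 of 19, of which 1 was the fit without control 3 (-0.94). The median of that list was -0.24.

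Of 11 mucin and peritrophic matrix genes outside the chitin set 1 fell, Muc68E, and 10 did not pass, beside 3.47% of all tests called lower. Muc68E was at 5.82, 5.91 and 5.60 in control against 4.94, 4.89 and 4.75 in gain, a difference of -0.92 ± 0.12 (SE, n = 3 per group, limma adjusted p = 0.0154). The call of Muc68E ended without control 1, control 2 or gain 1, with differences from -1.0 to -0.85 over the fits that left out 1 array. Muc68D had the opposite sign, at 1.06, with overlapping groups and no call (adjusted p = 0.217). The median of the list was -0.06, above that of all tests.

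None of 11 tested genes of the apical matrix and cuticle barrier passed in limma, with a median of -0.40. At an unadjusted p under 0.05 there were 3, beside 18.5% of all tests lower and 2.62% higher. The differences were negative for 8 and positive for 3, up to 0.54. Gain lay wholly below control in 3 and wholly above in 2, beside 25.2% and 5.49% of all tests. The largest differences there were those of zye and uif, at -0.84 and -0.80, both with their lowest value on gain 2; without that array they were -0.21 and -0.45. Of 8 regulators of cuticle and tracheal genes 1 fell, the nuclear receptor gene Hr39, beside 3.47% of all tests called lower. Hr39 went from 7.78, 7.86 and 7.59 in control to 6.87, 6.30 and 6.90 in gain, a difference of -1.05 (limma adjusted p = 0.0365). Hr39 passed in 11 of 19 other settings. Of the fits that left out 1 array, with differences from -1.16 to -0.86, it passed only without control 3 and without gain 2. Averaging the probe sets of Hr39 also ended the call, at -0.92 (limma adjusted p = 0.149), as did the replicate block (limma adjusted p = 0.0665). The nuclear receptor gene ftz-f1 had a difference of -0.80 with overlapping groups, which was -0.25 without gain 2 and -0.43 with the mean of its probe sets. Of 5 epidermal markers 3 did not pass the filter, and the 2 tested, Ddc and Cpr49Ae, had no call; their mean ranged from 8.0 to 8.28 in control and from 7.54 to 7.98 in gain. Whether epidermal content had a part in the falls of the chitin genes was not tested.

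**Figure D4:**
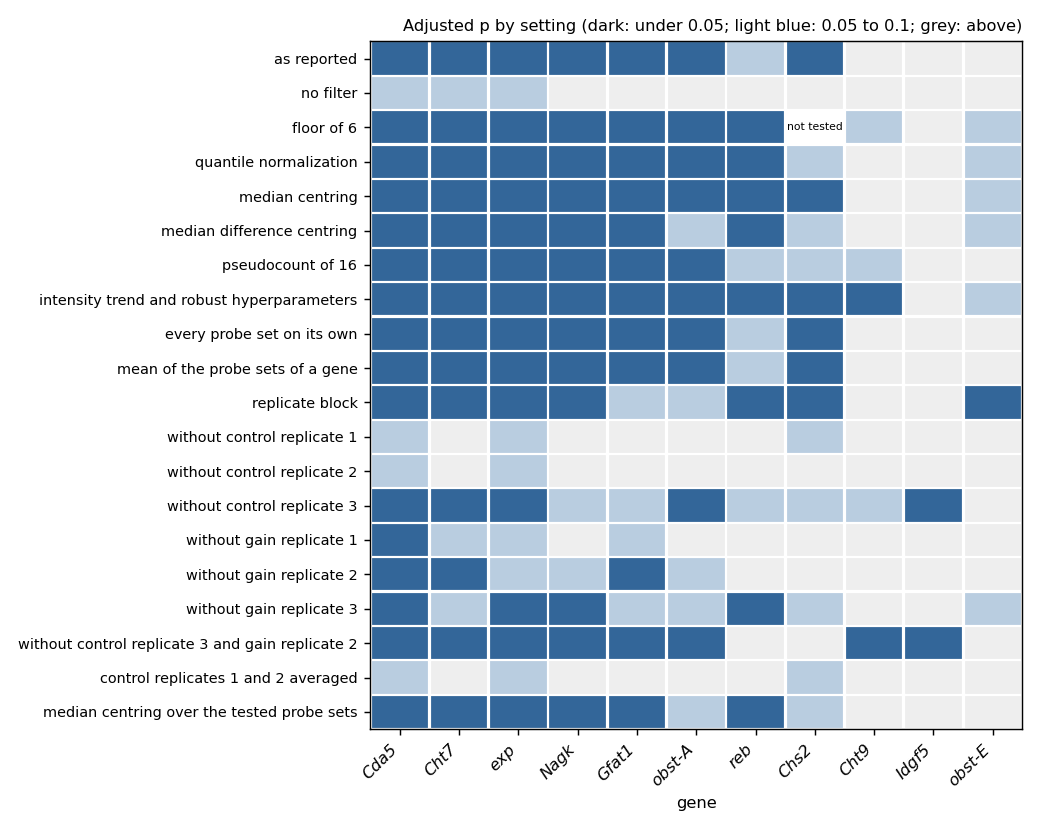
Adjusted p (limma) of the 11 chitin genes that passed under at least 1 setting (columns) under the reported analysis and each of 19 other settings (rows); dark cells are under 0.05, light blue cells from 0.05 to 0.1 and grey cells above. Cda5 passed in 15 of the 19 other settings, Cht7 and exp in 13 each, and no gene passed with no filter, without control 1, without control 2 or with controls 1 and 2 averaged.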

How the data were processed

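The table deposited by the authors holds 1 linear intensity for each probe set on each array. GCRMA made these values, per the submitters' processing notes, which name no version; the scanner and the build are not stated. Of 18952 probe sets, 13647 had 1 gene in the platform annotation, 402 several and 4720 none, and 183 array controls were left out. All 50 chitin probe sets matched the Release 6 plus ISO1 MT gene table by gene ID.

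Log2 was taken with no pseudocount. Probe sets entered the tests with a log2 value of at least 4 on 3 or more arrays (8395 did). Each gene was represented by its brightest probe set, which left 7974 tests. The fit used lmFit and eBayes of limma 3.58.1 (R 4.3.3) on the 2 groups alone, with Benjamini-Hochberg adjustment. Tables used Python 3.11.15, pandas 2.3.3 and NumPy 2.4.6, and figures Matplotlib 3.10.9. The fit was tested on simulated gain against control data for all 7974 tests, with 50 genes changed at each size. Calls were made for 1 of the genes changed 1.41-fold, 40 of those changed 2-fold and 49 of those changed 4-fold, and 10 calls were false. The simulated noise was independent between arrays, with no array-wide shift like that of gain 2 and no close pair of controls. The changed genes had middle intensities, a range that leaves out Chs2 below and Gfat1 and obst-A above. These figures therefore need not hold for the arrays here.

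The chitin genes and the other lists were chosen with earlier results of these data known. Named are all tested chitin genes, the called genes of each further list and its 2 largest differences. Additions are Hr96 and the markers betaTry, elav, bnl, drd, Ddc and Cpr49Ae. Other settings were quantile normalization, 3 kinds of centring, a floor of 6 or no filter, a pseudocount of 16, an intensity trend with robust hyperparameters, every probe set on its own, probe sets of 1 gene averaged, a replicate block, arrays left out, and controls 1 and 2 averaged. The last, and centring on the tested probe sets, were chosen after the data were seen.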

Additional observations from a re-analysis of the deposited data

How the results depend on the processing

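The 7 chitin genes called lower became 0 with no filter (20 at an unadjusted p under 0.05 in limma), 0 with controls 1 and 2 averaged, and 0 to 5 when 1 array was left out. They were 8 without control 3 and gain 2 together and 6 to 9 under the other settings. No chitin gene was called higher under any setting; at an unadjusted p under 0.05 there was 1 with centring on the tested probe sets and 0 otherwise. The 277 tests called lower became 85 with no filter, 40 with controls 1 and 2 averaged, 631 without control 3 and gain 2 together, and 27 to 374 with 1 array left out. The 36 called higher became 17, 13, 129 and 12 to 51 in the same order, 171 with quantile normalization (282 lower), 129 with centring on the median difference (349 lower) and 204 with centring on the tested probe sets (252 lower). The median of all tests was 0.03 with no filter, 0.04 with quantile normalization and 0.11 with centring on the tested probe sets. The median of the chitin genes was -0.57 to -0.23 over all settings and its distance from that of all tests -0.49 to -0.24.

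Same-numbered arrays of the groups deviated together with correlations of 0.21, 0.0255 and 0.367, and control 2 correlated best with gain 1, so the numbers were not taken to pair the samples. With the replicate number as a block 7 chitin genes were called, 5 of them the same; obst-E and reb were gained and Gfat1 and obst-A lost.

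Signs turned only for chitin genes without a call. Quantile normalization gave Cht6 0.04, Cht5 0.12, Cda9 0.10, Hexo2 0.20, Idgf3 0.13, obst-F 0.10 and Peritrophin-15a 0.01. Centring on the median difference gave Cda9 0.08, Hexo2 0.14, Idgf3 0.12, obst-F 0.06 and Peritrophin-15a 0.12. Centring on the tested probe sets gave Cht4 0.05, Cht6 0.09, Cht5 0.10, Cda9 0.19, Hexo2 0.25, Idgf6 0.06, Idgf3 0.23, obst-F 0.16, Peritrophin-15a 0.23 and kkv 0.03, and centring on all probe sets gave Gfat2 -0.07 and Peritrophin-15b -0.03. Without control 3 and gain 2, Cda9 was at 0.03, Hexo2 at 0.06, obst-F at 0.02 and Peritrophin-15a at 0.01. With controls 1 and 2 averaged Idgf3 was at 0.02 and Gfat2 at -0.08, and the mean of its probe sets put Idgf3 at 0.16. With 1 array left out, Idgf3 ranged from -0.12 to 0.05, Gfat2 from -0.15 to 0.23 (0.30 without control 3 and gain 2), Idgf1 from -0.92 to 0.02, Hexo2 from -0.05 to 0.06, Cht6 from -0.29 to 0.03 and Cda9 from -0.22 to 0.08. In the same fits obst-G ranged from -0.55 to 0.04, obst-F from -0.26 to 0.06, obst-I from -0.03 to 0.29, Peritrophin-15a from -0.08 to 0.01 and Peritrophin-15b from -0.02 to 0.16. The cause of these changes was not tested.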
